A study of Mus musculus with 12 samples.

Results

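Siglec-F and 9 further receptor genes of mouse eosinophils were followed across blood and 2 fat depots. The 10 genes (Siglecf, Siglece, Pirb, Lilrb4a, Cd300a, Cd300lf, Clec12a, Sirpa, Fcgr2b and Fcgr3) were taken by name from 54115 annotated genes, and all 10 had enough reads to be tested among 15367 genes. The samples were 12 RNA libraries of sorted eosinophils from 5 male FVB/NJ mice, wild-type, fed chow, given no treatment and killed at 20 weeks. Each of the 3 groups had 4 libraries. Blood came from mice 2807, 2771, 2683 and 2668, the gonadal depot from mice 2846, 2807, 2683 and 2668, and the subcutaneous depot from mice 2846, 2807, 2771 and 2668. Values for single libraries follow that order of mice throughout. Fat was digested with 1 mg/mL collagenase II at 37 C for 45 min, while blood was taken by cardiac puncture with no digestion given. Tissue and digestion therefore cannot be told apart in any comparison of fat with blood. Cells of every group were pre-treated with Fc Block, an antibody against Fc receptors, and sorted alive by surface CD45, CD11b and Siglec-F. The Siglec-F protein therefore had to be present on each sorted cell, and the RNA comparison for Siglecf is one within cells chosen for its product.

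Inhibitory receptors of this kind carry immunoreceptor tyrosine-based inhibitory motifs (ITIMs) in their cytoplasmic tails. When the tyrosine is phosphorylated by Src family kinases, the motif recruits the phosphatases SHP-1, SHP-2 or SHIP, which dampen signals from activating receptors. Siglec-F is the defining sialic acid-binding lectin of mouse eosinophils, and its engagement is known to promote their death. Many inhibitory receptors have an activating relative that shares much of the extracellular sequence and signals through an adaptor. Fcgr3 is such a relative and is not itself inhibitory. It is the activating IgG receptor that works through the Fc receptor gamma chain, and it stands here beside its inhibitory counterpart Fcgr2b.

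The motif that makes these receptors inhibitory is shown here for the members, as codons of the GRCm38 reference transcripts, because it separates Fcgr3 from the other 9 genes. The reference comes from another strain than FVB/NJ, whose sequence was not read. Each line gives the 18 coding bases of the 6 codons of the motif, 5′ to 3′ on the gene's strand, with the tyrosine codon in capitals.
Siglecf proximal motif (chr7:43358670-43358687, plus strand): ctccacTATgcctccctc
Siglecf distal motif (chr7:43358739-43358756, plus strand): tctgtaTACacagagatc
Siglece (chr7:43651585-43651602, minus strand): atacatTATgcgaccctc
Pirb second motif (chr7:3712786-3712803, minus strand): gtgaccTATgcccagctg
Lilrb4a first motif (chr10:51496021-51496038, plus strand): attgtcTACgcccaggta
Lilrb4a second motif (chr10:51496194-51496211, plus strand): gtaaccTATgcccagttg
Cd300a (chr11:114899846-114899863, plus strand): gtggaaTATagcacattg
Cd300lf (chr11:115117648-115117665, minus strand): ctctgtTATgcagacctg
Clec12a (chr6:129350433-129350450, plus strand): attgttTATgcaaatctc
Sirpa (chr2:129629954-129629971, plus strand): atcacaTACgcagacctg
Fcgr2b (chr1:170961071-170961088, minus strand): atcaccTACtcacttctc

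The cytoplasmic end of the coding sequence, taken as the last 150 codons, held 3 such motifs in Pirb and in Sirpa. It held 2 in Siglecf, Lilrb4a, Cd300a and Cd300lf, and 1 in Siglece and Fcgr2b. Clec12a is a type II protein with its tail at the N-terminus, so its first 40 codons were read, and they held 1 motif at codons 5 to 10. Fcgr3 held 0 motifs anywhere in its 267 codons. A match describes the letters only: Clec12a had 5 matches along its whole coding sequence and Pirb 4, so single matches also lie outside the tail.

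The 12 libraries held 12477671 to 23734940 estimated reads, except the subcutaneous library of mouse 2846 with 4379954. In that library mitochondrial ribosomal RNA took 28.1% of reads (4.66% to 8.79% elsewhere), and its fibroblast markers summed to 4068 CPM (counts scaled to library size), against 138 to 353.5 CPM in the other subcutaneous libraries. Of the genes that define eosinophils, the eotaxin receptor gene Ccr3 lay between 376.1 and 1649 CPM and the interleukin-5 receptor gene Il5ra between 48.58 and 170.5 CPM over all 12 libraries. The granule protein genes Epx and Prg2 were low everywhere, at 0 to 7.685 CPM and 0 to 4.763 CPM, both at 0 in the subcutaneous library of mouse 2846. In bulk samples, fewer cells of a type and less RNA per cell cannot be told apart.

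Markers of other cells differed between the groups. The sum of 12 macrophage markers was 331.9 to 653 CPM in blood, 841.7 to 2664 CPM in gonadal fat and 965.3 to 3358 CPM in subcutaneous fat, with 6 and 7 of the 12 called higher in the depots and 0 lower. Monocyte markers (6 genes) summed to 77.8 to 1813 CPM in blood, 799.9 to 6689 CPM in gonadal fat and 269.4 to 1407 CPM in subcutaneous fat, with 1 of 6 called higher in each depot. Most of the highest sums in blood and gonadal fat came from Fn1, which was not called in gonadal fat. It gave 1576 CPM in the blood library of mouse 2807 and 6195 CPM in the gonadal library of mouse 2683. For 8 neutrophil markers the sum was 2375 to 3701 CPM in blood and at most 680.8 CPM in fat, and 6 of the 7 tested were called lower in each depot. Most of this sum came from Retnlg, at 2206 to 3298 CPM in blood and 161 to 667.2 CPM in fat. Ltf was not called in gonadal fat. Ngp, a granule gene made by neutrophil precursors, was at 0 in 4 of the 8 fat libraries and at 6.528 to 14.3 CPM in blood. The sum of 13 eosinophil markers was 9312 to 10610 CPM in blood, 3740 to 8253 CPM in gonadal fat and 3423 to 8016 CPM in subcutaneous fat, with 7 of 13 called lower in each depot. The 13 include Siglecf and the genes of the sort markers CD45 (Ptprc) and CD11b (Itgam), with means of 3968 and 1905 CPM in blood. In gonadal fat the 7 were Ptprc, Itgam, Ccr3, Ear1, Ear2, Ear6 and Ptgdr2. Il5ra, Epx, Prg2, Adgre1, Alox15 and Siglecf were not called there. Macrophages, monocytes and neutrophils express several of the receptors described here, and the part of these cells in the results below was not tested.

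In both fat depots Lilrb4a stood several times higher than in blood, Cd300a was higher in gonadal fat, and Siglece and Pirb were lower in both depots. Clec12a and Fcgr3 were lower in subcutaneous fat. The Siglecf transcript did not pass the test in either depot. Of the 10 genes, 5 were called in gonadal fat against blood (2 higher, 3 lower), where 27.0% of all genes were called. In subcutaneous fat 6 of 10 were called (1 higher, 5 lower), against 26.8% of all genes. A call is an adjusted p under 0.05 from edgeR's quasi-likelihood test with Benjamini-Hochberg adjustment over all 15367 genes. Both comparisons use the same 4 blood libraries. The median log2 fold change of the 10 genes was -0.40 in gonadal and -0.69 in subcutaneous fat, beside 0.08 and 0.07 over all tested genes. With 2 libraries left out that stood apart (subcutaneous 2846 and blood 2807), 6 were called in each comparison.

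**Figure D1:**
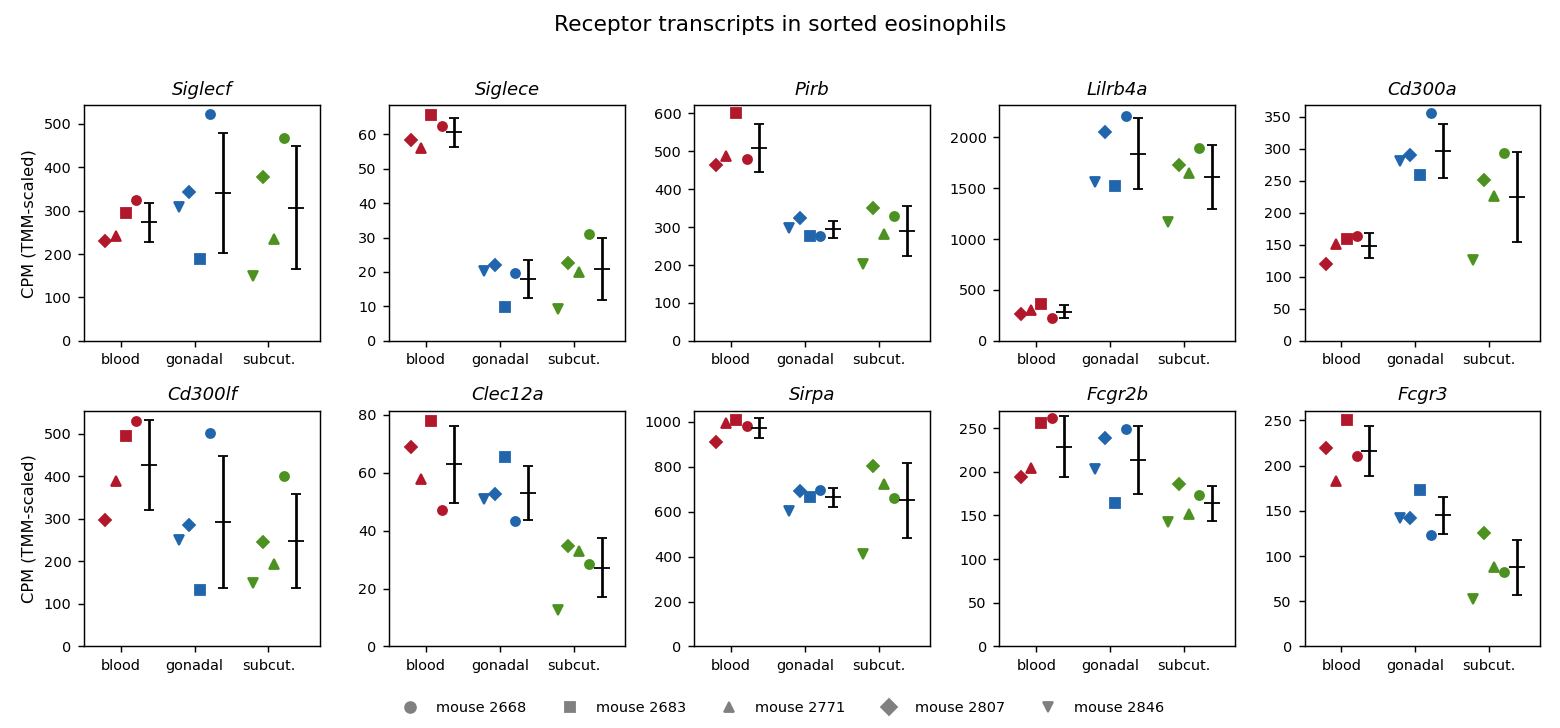
CPM (TMM-scaled, linear axis from 0) of the 10 receptor genes in each of the 12 libraries, with 1 panel per gene, groups along the horizontal axis and a marker shape per mouse. Horizontal ticks with bars are the mean ± SD of 4 libraries. Lilrb4a in fat lies between 1164 and 2215 CPM, above all blood libraries, while Siglecf overlaps between the groups.

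Siglecf (ENSMUSG00000039013, chr7:43351341-43359531, plus strand) encodes the sialic acid-binding receptor used for the sort. Its level was 231.1, 241.1, 295.4 and 324.2 CPM in blood, 307.4, 342, 189.3 and 523.7 CPM in gonadal fat and 148.8, 377, 235.1 and 466.9 CPM in subcutaneous fat. The groups overlapped, and the fat libraries spread more widely than those of blood, with mouse 2668 highest in all 3 groups. The gonadal library of mouse 2683, lowest of its group, also had the highest monocyte marker sum, 6689 CPM, of which Fn1 alone gave 6195 CPM. The log2 fold change was 0.32 (SE 0.346, 95% interval -0.43 to 1.07, adjusted p = 0.535) in gonadal fat and 0.17 (SE 0.346, 95% interval -0.58 to 0.92, adjusted p = 0.748) in subcutaneous fat. Without the subcutaneous library of mouse 2668 the latter turned to -0.10. Both intervals hold falls as well as rises, and the test did not show that the levels were equal. The 5 genes whose log2 CPM followed Siglecf most closely over the 12 libraries, among 5797 genes with a mean of at least 20 CPM, were Pstpip2 (r = 0.981), Adgre1 (r = 0.978), Plcg2 (r = 0.974), Tmem154 (r = 0.973) and Lrrfip2 (r = 0.971). Adgre1 encodes F4/80, a surface protein of eosinophils and macrophages that was stained but is not in the gate given.

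Siglece (ENSMUSG00000030474, chr7:43651070-43660161, minus strand) is a second member of the CD33-related Siglec family, best known as an inhibitory receptor of neutrophils and macrophages. In blood it stood at 58.28, 56.08, 65.53 and 62.51 CPM. Gonadal libraries had 20.36, 22.05, 9.817 and 19.56 CPM and subcutaneous libraries 9.283, 22.74, 19.88 and 31.05 CPM. Every fat library lay below every blood library. The fall was 3.38-fold in gonadal fat (log2 fold change -1.76, SE 0.318, adjusted p = 0.00195) and 2.89-fold in subcutaneous fat (-1.53, SE 0.317, adjusted p = 0.00444). Neutrophil markers fell and macrophage markers rose in the same libraries, as given above, and the part of either cell type was not tested.

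Pirb (ENSMUSG00000058818, chr7:3711409-3720391, minus strand), which binds MHC class I, was also lower in fat. Blood libraries held 465.2, 488.9, 601.2 and 479.4 CPM, gonadal libraries 297.5, 324.3, 276.3 and 277.3 CPM, and subcutaneous libraries 202.1, 350.9, 281.3 and 329.8 CPM. No fat library reached the blood range. The fall was 1.73-fold in gonadal fat (log2 fold change -0.79, SE 0.179, adjusted p = 0.00695) and 1.75-fold in subcutaneous fat (-0.81, SE 0.179, adjusted p = 0.00652). Reads of Pirb are hard to separate from those of its activating Pira relatives, since 44.1% of its stretches of 31 bases occur in other genes. When the 4 relatives that share over 20% of these stretches (Gm14548, Lilra6, Pira2 and Gm15922) were added, the log2 fold changes were -0.85 and -0.95, both still called. The longest stretch that the coding sequences of Pirb and Pira2 share without a mismatch, in 1 reference transcript of each, is 477 bases.

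Lilrb4a (ENSMUSG00000112148, chr10:51490956-51496611, plus strand), known as gp49B, is an inhibitory receptor of mast cells and myeloid cells. It had the largest difference of the 10 genes in both comparisons with blood. Blood libraries held 262.4, 300.5, 363.7 and 219.7 CPM. Gonadal libraries held 1564, 2054, 1524 and 2215 CPM, and subcutaneous libraries 1164, 1734, 1650 and 1901 CPM. The lowest fat library was above 3 times the highest blood library. The rise was 6.42-fold in gonadal fat (log2 fold change 2.68, SE 0.234, adjusted p = 1.31e-05) and 5.63-fold in subcutaneous fat (2.49, SE 0.232, adjusted p = 1.82e-05). Over 12 libraries its pattern was most like those of Osm (r = 0.992), a cytokine of the interleukin-6 family, Nr4a1 (r = 0.992), a nuclear receptor induced within minutes to hours of stimulation, and its neighbour Lilr4b (r = 0.989). These r values pool the groups, so a gene with a like difference between fat and blood gets a high r. Shared regulation was not tested.

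Which gene of this locus the reads came from is uncertain. Of the 31-base stretches of Lilrb4a, 56.1% occur in other genes, mainly in Lilr4b (39.1%) and in Gm49339 (35%), a gene model that spans both. Lilr4b, which encodes the activating gp49A, had 336.9, 435.9, 555.2 and 378.2 CPM in blood, 2391, 3216, 2235 and 4070 CPM in gonadal fat and 1574, 2938, 2528 and 4416 CPM in subcutaneous fat. It rose by 2.80 (SE 0.328, adjusted p = 9.56e-05) and 2.75 (SE 0.327, adjusted p = 0.000119) on the log2 scale, like its inhibitory neighbour. With Lilr4b and Gm49339 added to Lilrb4a, the log2 fold changes were 2.72 and 2.60. The longest identical stretch of the coding sequences of transcripts Lilrb4a-201 and Lilr4b-201 is shown because a read inside it cannot be assigned. It has 126 bases, at chr10:51491665-51491932 for Lilrb4a and chr10:51481371-51481638 for Lilr4b, each crossing an intron, on the plus strand. Untranslated ends and the other transcripts of these genes were not searched, so longer shared stretches may exist. Lilrb4a-201 itself received 0 reads in all 12 libraries.
Lilrb4a and Lilr4b shared run: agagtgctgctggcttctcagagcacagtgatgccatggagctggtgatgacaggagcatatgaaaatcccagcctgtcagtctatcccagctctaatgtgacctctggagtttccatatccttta
Salmon also gave nearly all Lilrb4a reads to transcripts annotated with a retained intron, 99.8% in blood, 99.8% in gonadal and 99.6% in subcutaneous fat. Its protein-coding transcripts received 0 to 10.78 CPM, at 0 in 9 of 12 libraries. The rise is thus one of reads over the locus, and no change of the coding transcript itself could be tested. For Lilr4b the coding transcripts alone gave 2.35 (adjusted p = 0.101) and 2.50 (adjusted p = 0.0881).

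**Figure D2:**
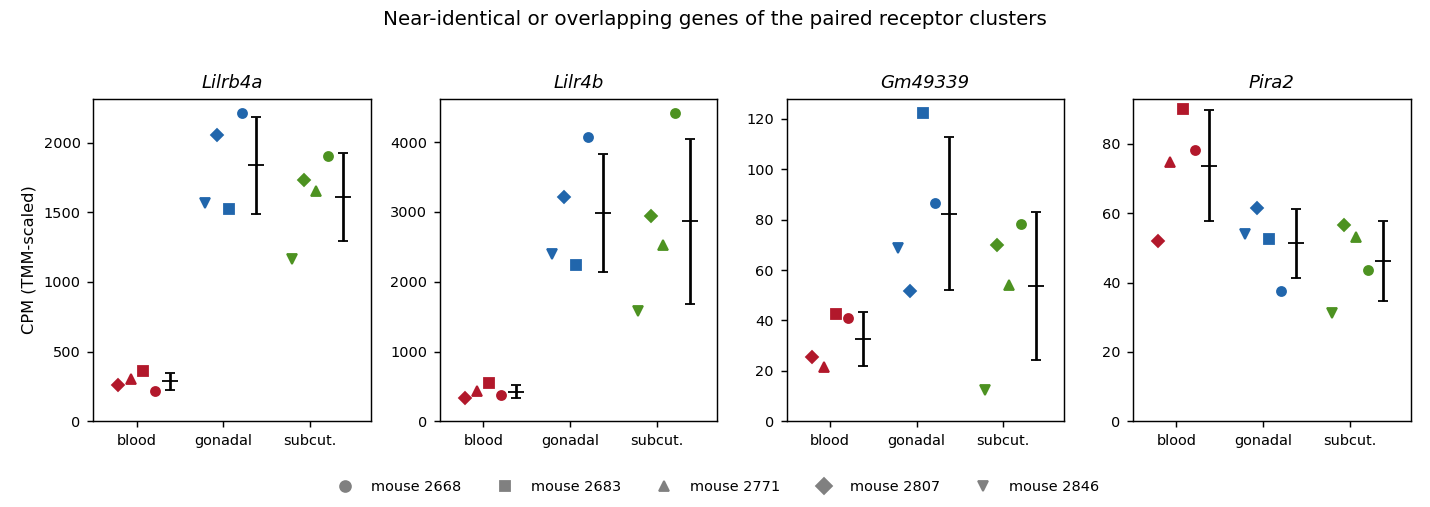
CPM (TMM-scaled, linear axes from 0) of Lilrb4a, its neighbour Lilr4b, the gene model Gm49339 that spans both, and Pira2, an activating relative of Pirb, in each library. Ticks with bars are the mean ± SD of 4 libraries. Lilrb4a and Lilr4b are higher in all 8 fat libraries than in any blood library.

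The 2 members of the CD300 family bind phospholipids exposed on dying cells and other lipids. Cd300a (ENSMUSG00000034652, chr11:114890041-114904654, plus strand) had 120.1, 151.1, 158.7 and 163.6 CPM in blood, 280.6, 290.1, 259.1 and 355.8 CPM in gonadal fat and 126.7, 251.5, 226 and 292.7 CPM in subcutaneous fat. All gonadal libraries lay above blood, while the subcutaneous library of mouse 2846 lay within it. Cd300a rose in gonadal fat (log2 fold change 1.00, SE 0.224, adjusted p = 0.00678). In subcutaneous fat its log2 fold change was 0.60 (SE 0.223, adjusted p = 0.0629), and 0.81 (adjusted p = 0.00524) without the library of mouse 2846. Over 20 alternative settings that adjusted p ran from 0.00524 to 0.42, and 6 of them gave a call. Cd300lf (ENSMUSG00000047798, chr11:115116214-115133992, minus strand) had 296.5, 388.4, 493.5 and 529.6 CPM in blood, 251, 284.4, 131.8 and 502.2 CPM in gonadal fat and 148.8, 245, 193 and 401.1 CPM in subcutaneous fat. Its groups overlapped, with mouse 2668 highest in each, and the log2 fold changes of -0.55 (SE 0.383, adjusted p = 0.318) and -0.79 (SE 0.385, adjusted p = 0.145) did not pass the test.

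Clec12a (ENSMUSG00000053063, chr6:129342691-129365303, plus strand) is a C-type lectin that senses uric acid crystals. It stood at 68.78, 57.91, 78.05 and 47.18 CPM in blood, 50.83, 52.59, 65.54 and 43.26 CPM in gonadal fat and 12.58, 34.78, 33.14 and 28.55 CPM in subcutaneous fat. The subcutaneous libraries lay below all others, and gonadal and blood libraries overlapped. Clec12a fell 2.29-fold in subcutaneous fat (log2 fold change -1.19, SE 0.273, adjusted p = 0.00748), and its log2 fold change in gonadal fat was -0.25 (SE 0.268, adjusted p = 0.535).

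Sirpa (ENSMUSG00000037902, chr2:129592835-129632228, plus strand) encodes the receptor for CD47, the signal that restrains phagocytosis. Blood libraries held 910.4, 996.3, 1008 and 982.5 CPM, gonadal libraries 604.8, 690.5, 666.3 and 694.8 CPM, and subcutaneous libraries 413, 804.5, 723.3 and 661.4 CPM. All fat libraries lay below all blood libraries. The log2 fold changes of -0.55 (SE 0.192, adjusted p = 0.048) and -0.58 (SE 0.192, adjusted p = 0.04) passed the threshold by little. With mouse as a block they were -0.42 (adjusted p = 0.164) and -0.51 (adjusted p = 0.0999), no longer called. Over the 20 alternatives for Sirpa itself the adjusted p ran from 0.00486 to 0.164 in gonadal and from 0.00656 to 0.176 in subcutaneous fat, with 13 and 15 of 20 not calling it. Leaving out any 1 of the 4 blood libraries ended both calls, and leaving out the subcutaneous library of mouse 2846 ended that in subcutaneous fat (-0.40, adjusted p = 0.0639).

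The 2 low-affinity IgG receptor genes lie close together on chromosome 1 and share a run of 129 identical bases in their coding sequences. Inhibitory Fcgr2b (ENSMUSG00000026656, chr1:170958617-170976547, minus strand) had 194.6, 204, 255.3 and 261.8 CPM in blood, 203.5, 238.2, 163.7 and 249.2 CPM in gonadal fat and 142.8, 186.1, 152 and 173.9 CPM in subcutaneous fat. Subcutaneous libraries lay below blood, and gonadal libraries overlapped both. B cells are rich in Fcgr2b, and the sum of 6 B cell markers was 113.8 to 447.1 CPM in blood, 29.06 to 93.95 CPM in gonadal and 43.49 to 197.7 CPM in subcutaneous fat. Its log2 fold change was -0.10 (SE 0.169, adjusted p = 0.704) in gonadal and -0.48 (SE 0.169, adjusted p = 0.0506) in subcutaneous fat, the latter with an adjusted p of 0.0302 to 0.272 over the 20 alternatives for the gene itself, 5 of which called it. Activating Fcgr3 (ENSMUSG00000059498, chr1:171051174-171064935, minus strand) had 219.7, 183.1, 250.4 and 210.9 CPM in blood, 142.2, 142.1, 172.8 and 123.5 CPM in gonadal fat and 53, 125.9, 87.77 and 82.85 CPM in subcutaneous fat. No fat library reached the blood range. Fcgr3 fell 2.47-fold in subcutaneous fat (log2 fold change -1.30, SE 0.222, adjusted p = 0.00145). In gonadal fat its log2 fold change was -0.57 (SE 0.219, adjusted p = 0.0686), and it was called without the subcutaneous library of mouse 2846 (adjusted p = 0.0198) or of mouse 2807 (adjusted p = 0.038). Of 20 alternatives 6 called it, and the adjusted p over all 20 ran from 0.0123 to 0.171. Whether the change of Fcgr3 differed from that of Fcgr2b was not tested.

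**Figure D3:**
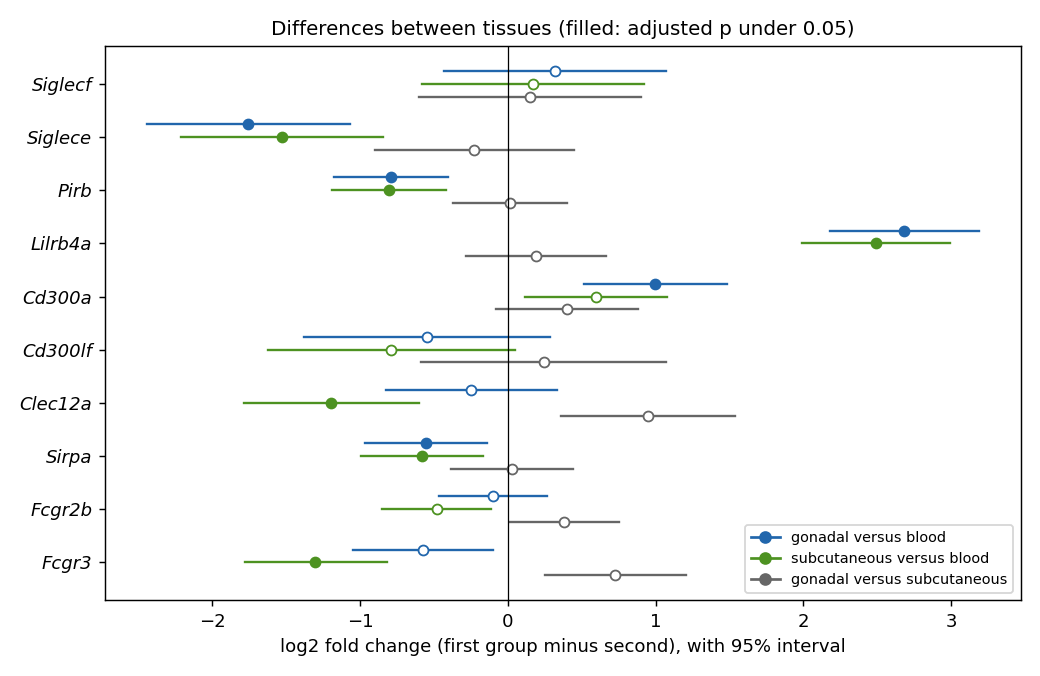
Log2 fold changes of the 10 genes (horizontal axis, first group minus second) with 95% intervals, for gonadal against blood, subcutaneous against blood and gonadal against subcutaneous. Filled points have an adjusted p under 0.05 in edgeR's quasi-likelihood test. Lilrb4a lies at 2.68 and 2.49 against blood, and no point of the comparison between depots is filled.

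Between the depots 0 of the 10 genes were called by edgeR, where 0.00651% of all genes (1 of 15367) were called. At an unadjusted p under 0.05 there were 3 (Clec12a, Fcgr2b and Fcgr3), beside 8.03% of all genes, and DESeq2 and limma-voom also called 0. Clec12a was 1.93-fold higher in gonadal than in subcutaneous fat without overlap (log2 fold change 0.95, SE 0.272, 95% interval 0.36 to 1.53, adjusted p = 0.421). It was the only one of the 10 whose depots did not overlap, beside 3.62% of all genes. Fcgr3 differed by 0.73 (SE 0.22, adjusted p = 0.448) and Fcgr2b by 0.38 (SE 0.169, adjusted p = 0.593) on the log2 scale, both with overlap. For Lilrb4a the interval of the difference was -0.29 to 0.67, and for Pirb -0.37 to 0.40. Against blood, 6 of 10 genes did not overlap in gonadal fat and 7 of 10 in subcutaneous fat, beside 36.3% and 29.5% of all genes.

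Levels were compared between genes only on the deposited TPM values (transcripts scaled to a fixed total per library), which take transcript length into account. In blood Sirpa was the most abundant at 135 ± 33.1 TPM (SD, n = 4). Cd300lf (65.4 ± 14.7), Fcgr3 (59.4 ± 15.2), Pirb (58.7 ± 11), Fcgr2b (51.7 ± 13.8), Lilrb4a (50.3 ± 12.4) and Siglecf (39.1 ± 11.2 TPM) followed, and neighbours among these 6 differed by less than the larger of their SDs. Cd300a (15 ± 3.29), Siglece (11.6 ± 2.88) and Clec12a (10.8 ± 4.68 TPM) were lowest, with Siglece and Clec12a within an SD of each other. In fat Lilrb4a came first, at 331 ± 101 TPM in gonadal and 273 ± 102 TPM in subcutaneous fat, above Sirpa at 104 ± 6.51 and 103 ± 36.9 TPM. Lilrb4a exceeded 99.3% of tested genes in gonadal fat by mean TPM, against 95.2% in blood. Nearly all its reads were given to retained-intron transcripts and the gene they came from is uncertain, as given above. Its rank is thus one of reads over the locus and not of coding transcripts. Siglecf had rank 7 in blood, rank 4 in gonadal fat (53.2 ± 27.7 TPM) and rank 3 in subcutaneous fat (43 ± 25.3 TPM), within an SD of Cd300lf in both depots (53.5 ± 35.7 and 41.3 ± 22 TPM).

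**Figure D4:**
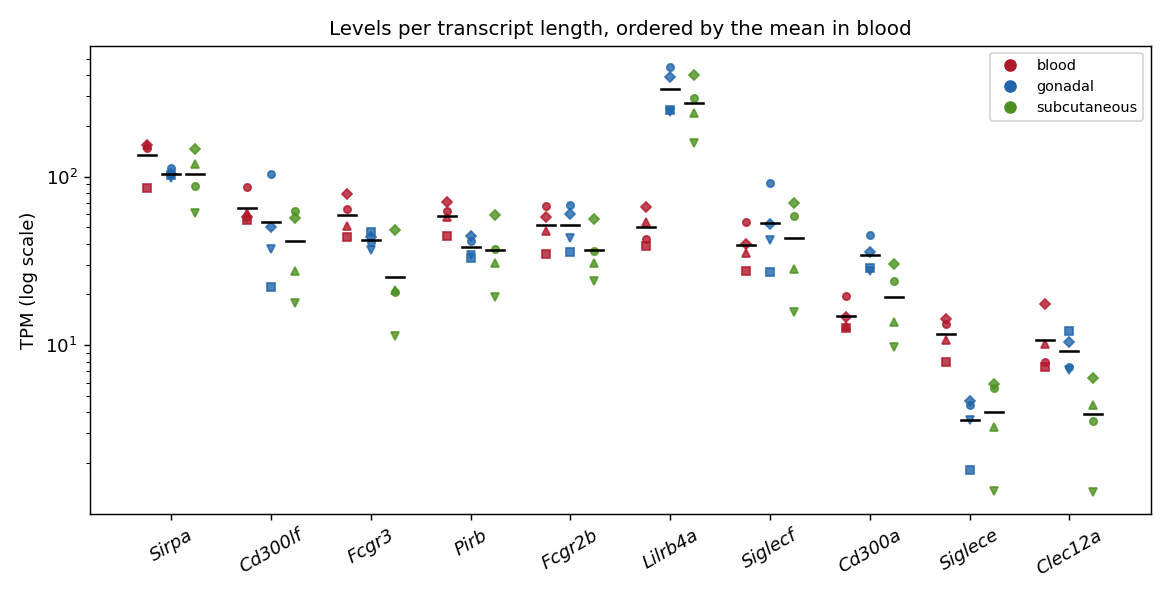
Deposited TPM (log axis) of the 10 genes in each library, ordered by the mean in blood. Points are libraries, with marker shapes for mice as in the plot of CPM by library, and short lines are group means. Lilrb4a, with nearly all reads on retained-intron transcripts, moves from rank 6 in blood to rank 1 in both depots.

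The share of a gene's reads that Salmon gave to transcripts annotated with a retained intron (an intron left in the RNA) could be tested for 7 members. It was compared on a log2 odds scale with limma over 6178 genes, of which 1.80% were called in gonadal and 3.77% in subcutaneous fat against blood. How many of these genes had shares without overlap between fat and blood was not counted, so a lack of overlap has no background here. For Siglecf the share was 37.08%, 59.44%, 40.94% and 47.39% in blood, 12.18%, 7.795%, 26.6% and 20.01% in gonadal fat and 0%, 13.48%, 1.11% and 12.98% in subcutaneous fat. All fat libraries lay below all blood libraries. The log2 odds differed by -5.24 (SE 1.294, adjusted p = 0.0444) in subcutaneous fat and by -2.25 (SE 1.294, adjusted p = 0.501) in gonadal fat. Only the former was called. Of its 13 alternatives 9 did not call it, at adjusted p values from 0.0601 to 0.11. With 1 library left out it ran from -6.17 (without subcutaneous 2807) to -3.74 (without subcutaneous 2846), where the library with a share of 0% is left out, and it was -6.14 without subcutaneous 2668 and -4.37 with 5 reads added. Over the 6178 genes together, retained-intron transcripts took 14.1% to 16.7% of reads in blood, 15% to 19.3% in gonadal and 18% to 21.4% in subcutaneous fat. The median share over these genes overlapped between the groups. It was 10.6% to 14.2% in blood, 10.9% to 12.6% in gonadal and 10.6% to 13.8% in subcutaneous fat.

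The protein-coding transcripts of Siglecf were also tested alone. They held 145.4, 96.42, 172.5 and 167.7 CPM in blood, 268.1, 315.1, 137.7 and 415.8 CPM in gonadal fat and 148.8, 326.3, 232.5 and 406.3 CPM in subcutaneous fat. Except for 1 gonadal and 1 subcutaneous library, the fat libraries lay above blood. The log2 fold changes were 0.97 (adjusted p = 0.069) and 1.00 (adjusted p = 0.0642), against 0.32 and 0.17 with all transcripts, and neither passed the test.

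Pirb moved the other way. Its retained-intron share was 74.2% ± 3.15 in blood, 90.6% ± 2.43 in gonadal fat and 87.9% ± 3.33 in subcutaneous fat (SD, n = 4 each), without overlap between blood and fat. The log2 odds rose by 1.76 (SE 0.27, adjusted p = 0.00587) and 1.36 (SE 0.27, adjusted p = 0.0164), the latter at an adjusted p of 0.0511 with blood 2771 left out and of 0.0596 with blood 2683 left out (0.0115 to 0.0596 over its 13 alternatives). Coding transcripts of Pirb fell by 2.26 (adjusted p = 0.000187) and 1.84 (adjusted p = 0.000747) on the log2 scale, more than all its transcripts together. Clec12a had 21.1% ± 5.64 in blood, 7.06% ± 2.96 in gonadal and 5.83% ± 4.33 in subcutaneous fat (SD, n = 4 each), again without overlap, at adjusted p values of 0.212 and 0.0804. The gonadal difference was called (adjusted p = 0.0495) when subcutaneous 2846 was left out of the fit. The other 4 members (Lilrb4a, Sirpa, Fcgr2b and Fcgr3) overlapped between fat and blood and were not called in limma. Between the depots 0 of the 7 members were called, where 0.0324% of genes were, with 2 members (Siglecf and Fcgr3) at an unadjusted p under 0.05, beside 6.17% of genes. In Fcgr3 the mean share was 33.5% in subcutaneous fat against 13.4% in blood (adjusted p = 0.164). Salmon's split between transcripts of 1 gene is less certain than the sum for the gene, and for Pirb it also rests on reads shared with its relatives.

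**Figure D5:**
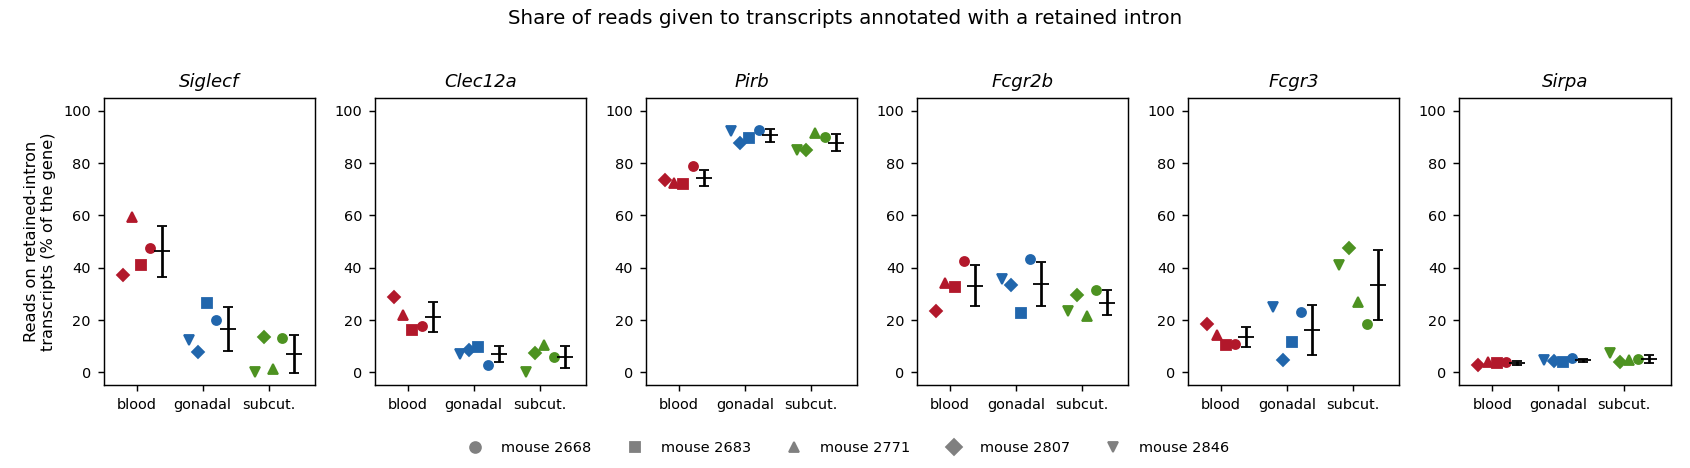
Percent of a gene's reads given to retained-intron transcripts, for 6 of the 7 members tested (Lilrb4a, near 100% in all libraries, is not drawn), by library and group, with the mean ± SD of 4 libraries. The axis covers 0% to 100%. Siglecf and Clec12a lie lower, and Pirb higher, in every fat library than in any blood library. How common such a lack of overlap is over all genes was not counted.

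Among 19 other inhibitory receptor genes tested, 2 were called higher and 4 lower in gonadal fat, where 15.4% of all genes were higher and 11.6% lower. In subcutaneous fat 4 were higher and 5 lower, where 15.4% and 11.4% of all genes were. Their median log2 fold changes were -0.42 and -0.22. Cd200r1, the receptor for the restraining ligand CD200, rose in both depots, from 15.63 ± 2.833 CPM in blood to 105.1 ± 36.78 CPM in gonadal and 40.53 ± 18.3 CPM in subcutaneous fat (SD, n = 4 each). Its log2 fold changes were 2.75 (adjusted p = 0.000111) and 1.38 (adjusted p = 0.00715). Cd101 fell by 2.35 (adjusted p = 0.000518) and 3.37 (adjusted p = 5.86e-05), and the collagen receptor gene Lair1 by 1.75 (adjusted p = 0.0156) and 1.93 (adjusted p = 0.0105). The subcutaneous value of Lair1 was -1.23 and not called with an offset for effective transcript length (adjusted p = 0.0626). Leaving out subcutaneous 2771 moved it to -2.67. Pecam1 fell by 1.46 (adjusted p = 0.00241) in gonadal fat. In subcutaneous fat Pilra fell by 2.66 (adjusted p = 0.0217), a call lost without any 1 of the subcutaneous libraries of mice 2846, 2807 and 2668, in 6 of 20 alternatives in all. Without subcutaneous 2771 it was -3.52.

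Of the 24 tested activating counterparts and adaptors, 5 were higher and 6 lower in gonadal fat, against 15.4% and 11.6% of all genes, and 5 higher and 8 lower in subcutaneous fat, against 15.4% and 11.4% (medians -0.51 and -0.54). The 13 calls in subcutaneous fat became 8 without the blood library of mouse 2683 and 5 with an offset for effective transcript length, and the 11 in gonadal fat became 17 with limma-voom. Clec4e, the lectin Mincle, rose from 12.77 ± 5.549 CPM in blood to 215.1 ± 51.77 CPM in gonadal and 176.6 ± 89.04 CPM in subcutaneous fat (SD, n = 4 each). The log2 fold changes were 4.07 (adjusted p = 5.14e-05) and 3.79 (adjusted p = 8.19e-05). Its gonadal value was 2.64 with coding transcripts alone. Trem2, a lipid-sensing receptor of macrophages, rose by 3.80 (adjusted p = 0.0043) in gonadal fat, where macrophage markers were higher too. It was 2.81 without the gonadal library of mouse 2683, 4.56 without the blood library of mouse 2807 and 6.23 (adjusted p = 0.00209) with coding transcripts alone. Cd300ld, an activating relative of Cd300lf, was called in subcutaneous fat at 0.84 (adjusted p = 0.0471), a call that 12 of 20 alternatives did not make, mouse as a block among them (adjusted p = 0.0544). It was 0.50 without the subcutaneous library of mouse 2668. In gonadal fat, a value chosen after it was seen, Cd300ld rose from 58.86 ± 11.39 CPM in blood to 178 ± 48.44 CPM (SD, n = 4 each) without overlap (3.02-fold, adjusted p = 0.00217), and all 20 alternatives called it. Pilrb1 fell by 1.77 (adjusted p = 0.00116) and 1.15 (adjusted p = 0.0127), Pilrb2 by 1.34 (adjusted p = 0.0112) and 1.39 (adjusted p = 0.0102), and Lilra6 by 0.87 (adjusted p = 0.0232) and 1.09 (adjusted p = 0.00806). With the length offset the calls of Pilrb2 in gonadal fat (adjusted p = 0.12) and of Pilrb1 and Pilrb2 in subcutaneous fat (adjusted p = 0.174 and 0.119) were lost. In gonadal fat the Lilra6 call was lost when any 1 of blood 2683, blood 2668, gonadal 2807 and gonadal 2683 was left out.

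Downstream of the receptors, 29 phosphatase, kinase and adaptor genes were tested. In gonadal fat 2 were higher and 8 lower, against 15.4% and 11.6% of all genes, and in subcutaneous fat 2 higher and 7 lower, against 15.4% and 11.4% (medians -0.21 and -0.29). The 10 calls in gonadal fat became 6 without the blood library of mouse 2771. Fgr, a Src family kinase, fell by 1.20 (adjusted p = 0.00073) and 1.11 (adjusted p = 0.00127), and the inhibitory adaptor gene Dok3 by 1.07 (adjusted p = 0.0138) and 1.11 (adjusted p = 0.0117). Pag1, which anchors the kinase Csk, fell by 2.95 (adjusted p = 0.00444) in gonadal fat, and Dok2 by 1.64 (adjusted p = 0.00087) in subcutaneous fat. Dok2 was also called lower in gonadal fat, by 0.94 (adjusted p = 0.017), a value outside the naming rule with no alternatives compared. The phosphatase genes Inppl1 (SHIP2) and Ptpn11 (SHP-2) were called higher in gonadal fat, at 0.92 (adjusted p = 0.0243) and 0.45 (adjusted p = 0.027), but not with mouse as a block (adjusted p = 0.0757 and 0.0818), and 6 and 11 of 20 alternatives did not call them. Without the gonadal library of mouse 2683 Inppl1 stood at 0.59 (adjusted p = 0.0814). Ptpn6, the gene of SHP-1, named here after its values were seen, fell from 706.2 ± 79.95 CPM in blood to 336.9 ± 57.8 CPM in gonadal and 339.4 ± 122.5 CPM in subcutaneous fat (SD, n = 4 each). No fat library reached the blood range. The log2 fold changes of Ptpn6 were -1.07 (adjusted p = 0.00827) and -1.06 (adjusted p = 0.00887), the latter not called with the length offset (adjusted p = 0.087). Neutrophil markers fell and macrophage markers rose in the same comparisons, and the part of either cell type was not tested.

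On the ligand side 15 genes were tested, for sialylation, CD47, MHC class I and the integrin that binds gp49B. In gonadal fat 1 was higher and 3 lower, and in subcutaneous fat 2 higher and 2 lower (medians -0.18 and -0.27). The 4 calls of 15 in each depot are a share near that of all genes, 27.0% and 26.8%. H2-K1, an MHC class I heavy chain and so a Pirb ligand, rose by 1.05 (adjusted p = 0.00207) and 1.51 (adjusted p = 0.000214). With coding transcripts alone the gonadal value was 0.55 (adjusted p = 0.131). The reference comes from another strain than FVB/NJ, and the effect of this on reads of class I genes was not tested. H2-D1, another class I heavy chain on the list, named here after its values were seen, was not called in either depot. It stood at 2022 ± 126.2 CPM in blood, 1772 ± 146 CPM in gonadal and 2136 ± 314.5 CPM in subcutaneous fat (SD, n = 4 each). B2m, the light chain of the same complex, fell by 0.73 (adjusted p = 0.0152) and 0.57 (adjusted p = 0.0429), the latter not called in 14 of 20 alternatives, among them mouse as a block (adjusted p = 0.0948) and leaving out subcutaneous 2846 (-0.41, adjusted p = 0.0824). Fut4, a fucosyltransferase, fell by 2.26 (adjusted p = 3.24e-05) and 2.09 (adjusted p = 5.62e-05), and Itgb3 by 1.19 (adjusted p = 0.0169) in gonadal fat. Between the depots edgeR called 0 genes on each of these 4 lists, with 4 of 19, 5 of 24, 2 of 29 and 2 of 15 at an unadjusted p under 0.05 in the order given, beside 8.03% of all genes. DESeq2 called 2 of the other inhibitory receptors and 0 on the other lists, and limma-voom called 0.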

How the data were processed

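Eosinophils sorted from blood, gonadal and subcutaneous adipose tissue gave 12 total RNA libraries, made with a stranded kit for low input per the labels' protocols. The labels give 1 library per mouse and tissue, so the spread is between mice. The submitters' processing notes name the tools Salmon 1.6.0, Trim Galore 0.6.4 and DESeq2 1.30.1 and the build mm10. The annotation release and the strand setting are not given in the sources used here.

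The authors deposited estimated counts per transcript, which need not be whole because Salmon divides reads among transcripts. The TPM values deposited by the authors, scaled to transcript length and library size, served for the order of levels between genes. The deposited effective length, another unit, entered as an offset in 1 alternative. Of 140992 transcripts, 139791 matched GENCODE M21 (GRCm38) and 1201, holding 0.351% to 0.538% of reads, did not and were left out of library sizes and tests. Estimated counts were summed per gene and rounded. CPM uses TMM-scaled library sizes. Libraries held 4379954 to 23734940 reads, so low genes are least precise in the shallowest.

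Tests used edgeR 4.0.16 in R 4.3.3 (quasi-likelihood, robust, TMM, filterByExpr) with all 12 libraries in 1 fit, group as the only term and Benjamini-Hochberg adjustment over 15367 genes. Intervals are 95%. Retained-intron odds (reads on retained-intron transcripts against the rest, with 0.5 reads added to each) were tested with limma 3.58.1 over 6178 genes with a mean of at least 50 reads. Scripts were run on simulated data to check the code. For the edgeR fit the simulated spread was smaller than that of these libraries, so it gives no error rate for them. Alternatives were mouse as a block, DESeq2 1.42.0, DESeq2 size factors in edgeR, limma-voom with sample weights, no filter on low counts, a length offset, each library left out, and near-identical copies summed. Copies found by shared 31-base stretches, coding transcripts only, 2 libraries left out together and 5 reads added to the odds were chosen after seeing the data.

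Mouse numbers mark the animal and so pair samples. Deviations from group means correlated at -0.111 to 0.358 over 9 same-mouse pairs (mean 0.0842, against -0.0188 over 39 other pairs). The receptors, lists and tests were chosen with earlier results of these data known. All 10 receptors are named. List genes are named if called and averaging 20 CPM or more in 1 of the groups compared, at most 3 per direction, comparison and list. Ptpn6, H2-D1, and Cd300ld and Dok2 in gonadal fat, are outside that rule. The symbols Pira1, Pira6, Pira7, Pira11 and Gp49a matched no gene. Motif codons were read from reference transcripts and the annotation.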

Additional observations from a re-analysis of the deposited data

How the results depend on the processing

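Of 657 comparisons of a receptor's log2 fold change with its value under an alternative (sums with copies included), 591 kept direction and side of the threshold, 28 lost the call, 18 gained it and 20 changed sign. Siglece, Pirb and Lilrb4a in both depots, Cd300a in gonadal fat, and Clec12a and Fcgr3 in subcutaneous fat were called under each alternative run for them. With mouse as a block (pairing by animal) 4 of 10 receptors were called in gonadal and 5 in subcutaneous fat against 5 and 6 without it. Among receptors and named list genes whose alternatives were compared, the block ended only the calls given in the text.

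The number of receptors called ran from 4 to 6 in gonadal and from 5 to 8 in subcutaneous fat, and was 0 between depots under each alternative. Over all genes, 4152 calls in gonadal fat became 6484 with limma-voom and 2753 to 5075 when 1 library was left out, lowest without the blood library of mouse 2771. In subcutaneous fat 4121 became 2689 with coding transcripts and 2737 to 4256 with 1 library left out, lowest without the blood library of mouse 2683. Between depots the 1 call became 152 with DESeq2, 0 with the block, limma-voom, coding transcripts or without both doubted libraries (subcutaneous 2846 and blood 2807), and 0 to 7 with 1 library left out.

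All changes of sign concern values that were not called. Between depots, Pirb (0.013) became -0.014 with DESeq2 size factors, -0.016 with DESeq2, -0.03 with limma-voom, -0.414 with coding transcripts and -0.132 without both libraries, and ran from -0.132 to 0.119 with 1 left out. Sirpa (0.029) became -0.038 with limma-voom, -0.061 with the length offset, -0.035 with coding transcripts and -0.142 without both libraries, and ran from -0.142 to 0.152. Siglecf (0.148) became -0.034 with coding transcripts and -0.083 without both, and ran from -0.134 to 0.433. With 1 library left out, Siglece ran from -0.461 to 0.036, Cd300lf from -0.15 to 0.589, and Siglecf in subcutaneous fat against blood from -0.096 to 0.42. For the retained-intron log2 odds, Lilrb4a in subcutaneous fat became 0.347 with 5 reads added and ran from -2.121 to 1.089. In gonadal fat against blood, Fcgr2b ran from -0.189 to 0.291 and Fcgr3 from -0.273 to 0.651. Between depots, Clec12a became -0.34 with 5 reads added and ran from -0.247 to 0.853, and Sirpa ran from -0.306 to 0.028. The cause was not tested. With 5 reads added, Clec12a in gonadal fat was called (adjusted p = 0.0355, range over its alternatives 0.0355 to 0.461). Lilrb4a could not be fitted on coding transcripts, where too few reads were left.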
